A study of Zea mays subsp. mays with 2 samples.

Results

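Among the transcribed loci of 14-day-old maize seedlings, 276 were listed with a level in roots and at exactly 0 in shoots. They are 0.738% of the 37398 loci of the table. The study sequenced polyadenylated RNA from the roots and the shoots of the inbred line B73, with 1 strand-specific library per organ and the noncoding RNAs of maize as its stated subject. Levels are FPKM, a count of fragments scaled to the length of the transcript and to the size of the library. Levels on opposite strands may not share a scale, as described below for the shortest loci. Every locus of the table exceeded 1 FPKM in at least 1 library, so a locus at 0 in shoots is above 1 FPKM in roots by the way the table was made. The loci were chosen by their deposited FPKM in shoots, and through the limit of 1 FPKM also by that in roots, so their own levels are given as a description with no test. With 1 library per organ there is no replicate, and each difference is one between these 2 libraries. In whole organs, fewer cells of a type and less RNA per cell cannot be told apart.

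The seedling root takes up water and minerals and grows from a meristem at its tip, while the shoot holds the leaves and their photosynthetic tissue. A locus here is a stretch of one strand that the assembly of the reads joined into a transcript or a set of transcripts, whether it codes for a protein or not. Long noncoding RNAs of plants are known for low levels and for expression limited to certain organs. The file pairs no identifier with a gene name, and 0 of the 276 identifiers were found among the 49888 genes of the maize RefSeq table. The loci are therefore named by position on B73 RefGen_v2. Whether a position is exonic, intronic or coding was not analysed here, and no sequence is shown.

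The loci listed at 0 in shoots were mostly weak in roots. Their root levels ran from 1.003 to 125 FPKM, with a median of 2.56 FPKM and quartiles of 1.41 and 7.84 FPKM. The median of all listed loci in roots was 8.20 FPKM. Of the 276 loci, 118 (42.8%) stood under 2 FPKM, 90 (32.6%) at 5 FPKM or more, 48 (17.4%) at 10 FPKM or more and 14 at 20 FPKM or more. Together they held 0.147% of the FPKM sum of the root library, an approximate share because it adds both strands. On the scale log2((roots FPKM + 1)/(shoots FPKM + 1)), 120 of them lay at least 4-fold higher in roots, which at 0 in shoots only says that they reached 3 FPKM in roots, and nothing is read from this count. Adding 1 FPKM makes ratios between low levels smaller than they are. The same call was made at 3.95% of all listed loci, and 7.55% were at least 4-fold higher in shoots.

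The loci were short. Genomic span, the distance from start to end with any introns included, had a median of 342 bp and quartiles of 208 and 633 bp, against a median of 2443 bp over all listed loci. Of the 276 loci, 190 (68.8%) spanned at most 500 bp, against 16.8% of all listed loci and 47.1% of the 597 loci listed at 0 in roots. A span over 2000 bp was found at 16 of the 276 loci (5.80%) and at 56.3% of all listed loci. The longest, on the minus strand of chromosome 2 between 97421103 and 97447653, spanned 26551 bp and stood at 1.57 FPKM in roots.

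Root levels were mostly highest among the shortest of these loci. The 9 loci of 101 to 120 bp had 16.4 to 125 FPKM in roots, and the 24 loci of 121 to 150 bp had 5.81 to 26.8 FPKM. The 68 loci of 301 to 500 bp had 1.01 to 8.25 FPKM, with a median of 1.60 FPKM. Over the 190 loci of at most 500 bp, Spearman's rho between root level and span was -0.71, and it was -0.43 over the 4893 other listed loci of that span above 1 FPKM in roots. These correlations are across loci of 1 library, and transcript length enters the FPKM of each. Over the 86 longer loci at 0 in shoots rho was 0.16.

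**Figure D1:**
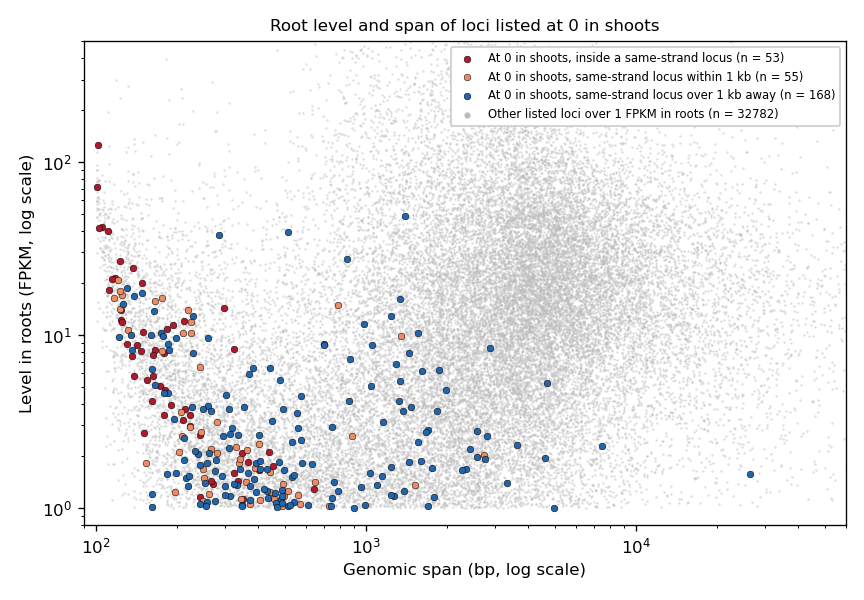
Root level in FPKM against genomic span in bp, both on log scales, for the 276 loci at 0 in shoots (coloured by their place relative to the nearest same-strand locus) and for 32782 other listed loci above 1 FPKM in roots (grey, 432 of them beyond the axes). The coloured points of 101 to 120 bp lie at 16.4 FPKM and above, and most of the points inside a same-strand locus are at the short end.

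The lowest levels above 0 also differed with span. The lowest shoot level above 0 was 0.268 FPKM among listed loci of 101 to 120 bp and 0.00889 FPKM among those of 2001 to 5000 bp. The first percentile of the shoot levels above 0 was 1.60 FPKM in the shorter class and 0.0821 FPKM at 1001 to 2000 bp. It was higher again at longer spans, with 0.251 FPKM at 2001 to 5000 bp and 0.689 FPKM above 5000 bp. An exact 0 in such a table can also be a failed estimate, which is why the loci are called listed at 0. FPKM of the shortest loci depends strongly on the fragment length assumed.

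The 23 listed loci of exactly 101 bp, the shortest of the table, allowed a closer look, which was chosen after the values were seen. On each strand and in each library, all of their levels above 0 were whole multiples of a common step, within 0.05 steps, at 44 of 44 values. The step was 4.78 FPKM in roots against 6.30 FPKM in shoots on the minus strand, and 5.99 FPKM in roots against 6.90 FPKM in shoots on the plus strand. Each of the 23 loci had between 10 and 63 steps in its higher library. A single locus among them was at 0 in shoots, on the minus strand of chromosome 4 between 186950746 and 186950846, with 71.7 FPKM in roots. That level is 15 steps. If a step is 1 sequenced fragment, a count of 0 in shoots allows up to 3 fragments, or 18.9 FPKM. This limit covers counting error only, and the 15 steps in roots carry a counting error of their own. At all other spans the depth behind a value is unknown, and no limit is given.

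The share of listed loci at 0 in shoots differed with span and with root level. Among loci at 10 FPKM or more in roots, 32 of 843 (3.80%) of at most 200 bp were at 0 in shoots, 8 of 546 (1.47%) of 201 to 500 bp, 8 of 3123 (0.256%) of 501 to 2000 bp, and 0 of 12571 above 2000 bp. Among loci at 1 to 2 FPKM in roots, the shares over the same classes were 3.75%, 6.26%, 1.95% and 0.582%. For spans over 200 bp the share was lower at each higher class of root level, and for spans of at most 200 bp it stayed between 3.75% and 3.90%.

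**Figure D2:**
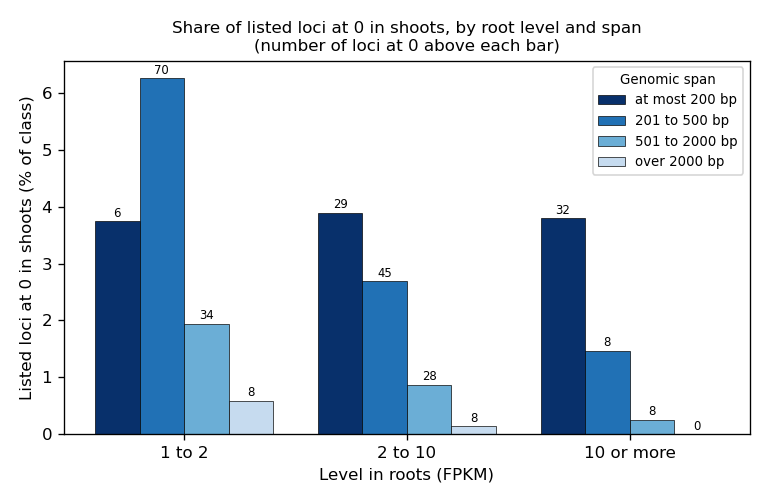
Percentage of listed loci at 0 in shoots, on the vertical axis, by root level in FPKM (horizontal axis) and genomic span (shades), with the number of such loci above each bar. Loci over 2000 bp at 10 FPKM or more in roots have no bar because 0 of 12571 were at 0 in shoots.

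The loci closest to the rule by shoot level were longer than most loci at 0 in shoots. The 5 listed loci with the lowest shoot levels above 0, all on the plus strand, had 0.00889 to 0.0131 FPKM in shoots and spanned 2338 to 4719 bp. In roots 4 of them stood at 1.27 to 1.51 FPKM and the other, on chromosome 8 between 100755375 and 100757932, at 7.61 FPKM. Inside the rule, the locus at 0 in shoots with the lowest root level lay on the minus strand of chromosome 2 between 231372739 and 231377692, at 1.003 FPKM in roots. In all, 213 loci lay above 0 and at most at 0.1 FPKM in shoots. Their median span was 1449 bp, against 2443 bp over all listed loci, and 25 of them spanned at most 500 bp. Their median root level was 2.18 FPKM, and 33 of them stood at 10 FPKM or more in roots. The lowest shoot level above 0 was 0.268 FPKM at 101 to 120 bp and 0.188 FPKM at 121 to 150 bp. Loci that short were therefore absent between 0 and 0.1 FPKM, and nothing is read from the difference in span.

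The loci lay on both strands of all 10 chromosomes. The minus strand held 143 and the plus strand 133, which is 0.772% and 0.705% of the listed loci of each strand. By chromosome the share ran from 0.589% on chromosome 4, with 23 loci, to 0.894% on chromosome 10, also with 23. The outermost 5 Mb, counted from the first base and from the last listed base of each chromosome, held 8.70% of the 276 loci and 9.67% of all listed loci. A median of 5 other listed loci lay within 100 kb, as for all listed loci. The 597 loci at 0 in roots, the opposite list, had a median span of 539 bp and a median shoot level of 2.66 FPKM. They were longer than the 276 loci and shorter than all listed loci, with 13.2% over 2000 bp. Short spans were thus not particular to the loci at 0 in shoots.

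Most of the strongest loci lay inside other transcribed loci. Of the 14 loci at 20 FPKM or more in roots, 9 lay wholly inside a longer locus of the same strand, and 10 spanned at most 150 bp. Of all listed loci 8.60% lay inside a same-strand locus, and of those of 101 to 200 bp 47.0% did. The enclosing loci of these 9 were transcribed in both organs, at 13.7 to 106 FPKM in roots against 0.522 to 73.9 FPKM in shoots. All 9 enclosing loci had more FPKM in roots than in shoots, and 3 of them were at least 4-fold higher in roots. Over all listed loci that lie inside a same-strand locus, the enclosing one was at least 4-fold higher in roots in 2.40% of cases. The division of reads between an enclosed and an enclosing locus by the authors' assembly was not tested.

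The highest of all was P_XLOC_029333, a plus-strand locus of 102 bp on chromosome 9 between 152418352 and 152418453, with 125 FPKM in roots and 0 in shoots. It lies inside a locus of 5687 bp that had 16.6 FPKM in roots against 4.37 FPKM in shoots. The enclosed locus was thus listed above its enclosing locus in roots, per length, and at 0 in the organ where the enclosing one was still present. The second was M_XLOC_015534, the locus of 101 bp on chromosome 4 described above. Its enclosing locus of 3348 bp had 106 FPKM in roots against 73.9 FPKM in shoots, the highest shoot level among the 9.

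On the minus strand of chromosome 2, the locus between 18623912 and 18624016 had 42.3 FPKM in roots, inside a locus of 6331 bp with 45.0 FPKM in roots against 6.50 FPKM in shoots. On the plus strand of the same chromosome, the locus between 193505653 and 193505755 had 41.3 FPKM in roots, inside one with 13.7 FPKM in roots against 8.35 FPKM in shoots. It also lies wholly within a minus-strand locus of 593 bp, at 1.28 FPKM in roots against 1.19 FPKM in shoots. The enclosing loci of these 2 thus differed in how far they leaned to the root. On the minus strand of chromosome 10, the locus between 90931565 and 90931675 had 39.8 FPKM in roots, and its enclosing locus had 27.5 FPKM in roots against 0.522 FPKM in shoots. Here the enclosing locus was itself under 1 FPKM in shoots.

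The other enclosed loci of this level were weaker. The locus on the minus strand of chromosome 3 between 46576902 and 46577024 had 26.8 FPKM in roots and belongs to a group described below. On the minus strand of chromosome 1, the locus between 279120741 and 279120877 had 24.3 FPKM in roots, inside a locus with 31.0 FPKM in roots against 16.3 FPKM in shoots. On the plus strand of chromosome 10, the locus between 131999925 and 132000042 had 21.5 FPKM in roots, inside one with 52.1 FPKM in roots against 34.0 FPKM in shoots. Both enclosing loci lay within 4-fold between the organs. The last, on the plus strand of chromosome 2 between 2680580 and 2680694, had 20.9 FPKM in roots, inside one with 74.98 FPKM in roots against 22.5 FPKM in shoots.

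The 5 loci of this level outside any same-strand locus included the longer ones. On the minus strand of chromosome 2, the locus between 41960383 and 41961780 spanned 1398 bp and had 48.8 FPKM in roots. Its nearest same-strand locus, 38.4 kb away, went the other way, with 0.329 FPKM in roots against 5.98 FPKM in shoots. On the plus strand of chromosome 8, the locus between 11105498 and 11106013 spanned 516 bp and had 39.3 FPKM in roots, with its nearest listed loci 93.9 kb away on the same strand and 194 kb away on the other. Both thus had no same-strand locus close by.

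On the plus strand of chromosome 6, the locus between 75401181 and 75401465 had 37.8 FPKM in roots. The same-strand locus 2.80 kb away had 11.1 FPKM in roots against 41.9 FPKM in shoots. On the plus strand of chromosome 10, the locus between 122809146 and 122809993 spanned 848 bp and had 27.4 FPKM in roots, and the nearest same-strand locus, 143 kb away, had 4.02 FPKM in roots against 228 FPKM in shoots. In both cases the nearest same-strand neighbour had more FPKM in shoots than in roots. The fifth, on the plus strand of chromosome 4 between 99866616 and 99866736, spanned 121 bp and had 20.8 FPKM in roots. It lies 85 bp from a locus of 361 bp with 1.59 FPKM in roots against 0.686 FPKM in shoots, and within an opposite-strand locus of 82775 bp.

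Span over 500 bp and 10 FPKM or more in roots were combined at 8 loci, a choice made after the values were seen. Beside the loci of chromosomes 2, 8 and 10 just given, these were the minus-strand loci of chromosome 7 between 168904153 and 168905493 (16.2 FPKM in roots), of chromosome 5 between 145215467 and 145216705 (12.9 FPKM) and of chromosome 1 between 237842953 and 237844512 (10.3 FPKM). The plus-strand ones were on chromosome 7 between 169336065 and 169336853 (15.0 FPKM) and on chromosome 9 between 152794051 and 152795036 (11.5 FPKM). None of these 8 lay inside a same-strand locus. The locus on chromosome 1 had an opposite-strand neighbour 6.79 kb away with 14.7 FPKM in roots against 0.0564 FPKM in shoots. That neighbour was thus also near 0 in shoots.

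By their surroundings on their own strand, the 276 loci formed 3 sets. Inside a longer same-strand locus lay 53 (19.2%), against 8.60% of all listed loci. Outside, but within 1 kb of a same-strand locus, lay 55 (19.9%), against 20.2% of all listed loci, where loci that overlapped a same-strand locus in part are included. The other 168 (60.9%) had no same-strand locus within 1 kb, against 71.2% of all listed loci. The enclosed set had the lowest median span of the 3, 173 bp, and the highest median root level, 7.55 FPKM. Such levels are common at short spans: over all listed loci of 151 to 200 bp, the median level in the higher library was 7.66 FPKM. For loci at 0 in shoots of that span, the median root level was 5.65 FPKM. The sets within 1 kb and farther away had medians of 280 and 467 bp and of 2.07 and 2.10 FPKM. Short loci are often enclosed in any case: among loci of 101 to 200 bp, 49.3% of those at 0 in shoots and 47.0% of all listed ones lay inside a same-strand locus. Among loci of 201 to 500 bp these shares were 15.4% and 36.8%.

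The nearest same-strand neighbours of the loci leaned to the root. They lay at a median gap of 2.91 kb, an overlap counting as 0, against 10.4 kb for all listed loci. Their log2 ratio of roots over shoots had a median of 0.85 and quartiles of 0.13 and 1.83, and it was above 0 at 220 of 276 (79.7%). Over the nearest same-strand neighbours of all listed loci, the median was 0.06 and 53.4% were above 0. At least 4-fold higher in roots were 60 of the 276 neighbours (21.7%), against a background of 3.78% for the neighbours of all listed loci. At least 4-fold higher in shoots were 13 (4.71%), against 7.46%. The opposite list leaned the other way. Of the nearest same-strand neighbours of the 597 loci at 0 in roots, 160 (26.8%) were at least 4-fold higher in shoots, with a median log2 ratio of -1.10. A lean to the organ of the list was thus not particular to the loci at 0 in shoots. The 276 loci share 267 distinct neighbours, and 8 of the neighbours were themselves at 0 in shoots. The ratio comes from the 2 libraries that chose the loci, so these values describe the surroundings and carry no test. The median was 0.42 with 5 FPKM added in place of 1, and also 0.42 when the nearest neighbour over 1 kb away was taken at every locus.

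Taken over all distances, the median ratio of the nearest opposite-strand neighbours was close to that of the whole table. Their median gap was 29.0 kb, against 26.2 kb for all listed loci. Their median log2 ratio was 0.09, with quartiles of -0.36 and 0.64, and 158 of 276 (57.2%) were above 0. For all listed loci the median was 0.08 and 55.1% were above 0. At least 4-fold higher in roots were 20 of the 276 (7.25%), against a background of 3.69%, and at least 4-fold higher in shoots were 19 (6.88%), against 7.74%. The 276 loci share 258 distinct opposite-strand neighbours. At 7 of the 276 loci this neighbour was itself at 0 in shoots, and at 5 of these it lay beyond 50 kb. A call at such a neighbour rests on its root level alone. Both neighbours were at least 4-fold higher in roots at 6 loci, which include all 4 of the chromosome 7 group described below. Neither neighbour was called in either direction at 174. These counts were not made for all listed loci, and nothing is read from them. The median was 0.25 over the 94 loci with an opposite-strand neighbour within 10 kb, but not each near class leaned to the root. It was 0.42 for overlapping neighbours, -0.21 for the 9 below 1 kb and 0.23 at 1 to 10 kb. For all listed loci these medians were 0.10, 0.10 and 0.11. By distance, at least 4-fold higher in roots were 5 of 30 overlapping neighbours (16.7%, against 2.96% for all listed loci) and 7 of 55 at 1 to 10 kb (12.7%, against 3.44%). The numbers were 0 of 9 below 1 kb (against 2.49%), 3 of 79 at 10 to 50 kb (3.80%, against 4.14%) and 5 of 103 beyond 50 kb (4.85%, against 3.94%).

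**Figure D3:**
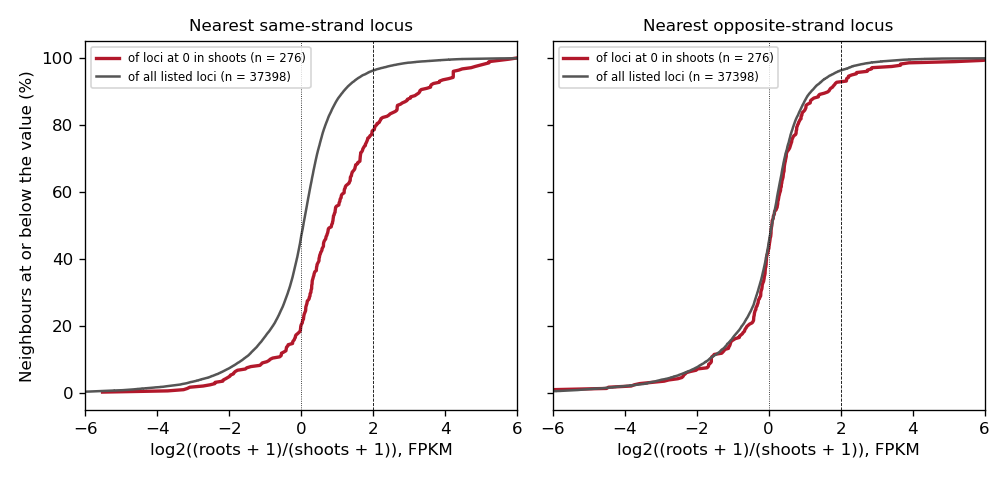
Cumulative percentage of neighbours (vertical axis) by their log2 ratio of roots over shoots with 1 FPKM added (horizontal axis), for the 276 loci at 0 in shoots (red) and for all 37398 listed loci (grey), with ratios of 0 and of 4-fold marked by vertical lines. On the same strand the red curve lies right of the grey one, with medians of 0.85 and 0.06, and on the opposite strand the medians are 0.09 and 0.08.

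Root-biased same-strand neighbours were most frequent among enclosing and adjoining loci. For the 53 enclosed loci, which lie in 48 distinct enclosing loci, the enclosing one was in 24 cases (45.3%) at least 4-fold higher in roots and in 1 case higher in shoots, with a median log2 ratio of 1.69 and median levels of 21.1 FPKM in roots against 3.04 FPKM in shoots. Of the 55 neighbours outside the locus and within 1 kb, 18 (32.7%) were at least 4-fold higher in roots, with a median log2 ratio of 1.51 and median levels of 4.44 FPKM in roots against 0.686 FPKM in shoots. Among all listed loci, the enclosing ones were at least 4-fold higher in roots in 2.40% of cases and those overlapping in part or within 1 kb in 2.72%. Of the 108 close neighbours of the loci at 0 in shoots, 84 were more abundant in roots than the locus itself, a count not made for all listed loci. Above 1 FPKM in shoots were 65 of the 108, or 41 of the 53 enclosing loci and 24 of the 55 others. Among all listed loci these were more frequent, at 3187 of 3215 enclosing loci and 6904 of 7547 overlapping in part or within 1 kb. The median ratio of neighbour over locus in roots was 2.66-fold over the 108, also not computed for all listed loci. The loci at 0 in shoots were mostly weak in roots, so nothing is read from the 84 or from this ratio.

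Root-biased neighbours lay on both sides. Within 1 kb, 27 neighbours lay 3' of the locus and 28 lay 5' of it. At least 4-fold higher in roots were 10 of the 27 and 8 of the 28, with median log2 ratios of 1.75 and 1.32.

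Farther away the lean was smaller and still present. Over the 168 loci with no same-strand locus within 1 kb, the neighbour had a median log2 ratio of 0.36, and 18 (10.7%) were at least 4-fold higher in roots. For all listed loci in that position the median was 0.10 and the share 4.24%. By distance, at least 4-fold higher in roots were 6 of 58 neighbours at 1 to 10 kb, 7 of 66 at 10 to 50 kb and 5 of 44 beyond 50 kb.

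**Figure D4:**
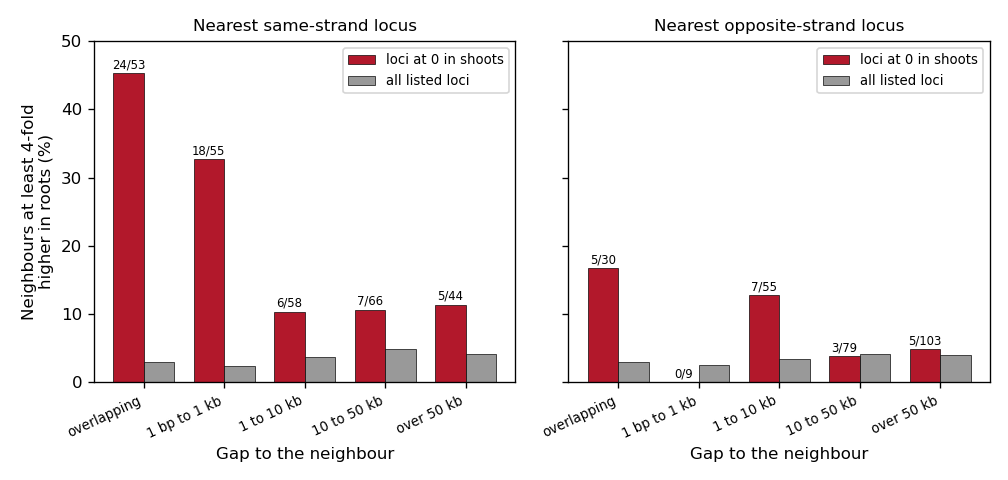
Percentage of nearest neighbours at least 4-fold higher in roots (vertical axis) by their gap to the locus (horizontal axis), on the same and on the opposite strand, for the loci at 0 in shoots (red, with counts) and all listed loci (grey). On the same strand the red bars stand at 45.3% for overlapping neighbours, 32.7% within 1 kb and 10.3% to 11.4% beyond.

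Enclosed loci with a root-biased enclosing locus lay mostly on the minus strand. There the enclosing locus was at least 4-fold higher in roots for 19 of 30 enclosed loci (63.3%), in 15 distinct enclosing loci, against 2.67% of all listed enclosed loci of that strand. It was so for 5 of 23 on the plus strand (21.7%), against 2.14%. The difference between strands was not tested. By the difference of the enclosing locus, the largest was on the minus strand of chromosome 5, where the locus between 62604691 and 62605014 had 8.25 FPKM in roots. Its enclosing locus had 76.5 FPKM in roots against 0.727 FPKM in shoots (log2 ratio 5.49). Also on that strand and chromosome, the locus between 210753722 and 210753869 had 19.9 FPKM in roots, inside one with 34.5 FPKM in roots against 0.343 FPKM in shoots. On the plus strand of chromosome 2, the locus between 72437459 and 72437757 had 14.3 FPKM in roots, inside one with 47.5 FPKM in roots against 1.18 FPKM in shoots. These 3 were chosen after their values were seen. In each, the enclosing locus was low in shoots and still above 0.

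An opposite-strand locus overlapped 30 of the 276 loci, and 18 lay wholly inside it. Of these 30 opposite-strand partners, 5 (16.7%) were at least 4-fold higher in roots and 2 (6.67%) in shoots. For the overlapping opposite-strand neighbours of all listed loci these shares were 2.96% and 7.83%. In 4 of these 5 the locus at 0 in shoots was far below its opposite-strand partner in roots. On chromosome 5, the plus-strand locus between 210409708 and 210409902 had 3.28 FPKM in roots, which is 0.951% of the 345 FPKM of its partner, and the partner had 8.59 FPKM in shoots. On chromosome 10, the plus-strand locus between 73282496 and 73282756 had 3.89 FPKM in roots, 3.16% of the 123 FPKM of its partner, which had 1.02 FPKM in shoots. On chromosome 1, between 137833728 and 137834075, the share was 1.32%, and on chromosome 7, between 24368626 and 24368973, it was 0.783%. These loci were chosen after their values were seen. Over the 29 loci whose partner was above 0 in roots the median share was 29.4%. The step at 101 bp differed between the strands of the root library, at 5.99 FPKM on the plus and 4.78 FPKM on the minus strand, so levels on opposite strands may not share a scale, and such shares are approximate. The carry-over of reads between strands was not tested.

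Most loci at 0 in shoots lay alone, and a minority formed small groups. The median distance to the nearest other locus at 0 in shoots, on either strand, was 1835 kb. Within 100 kb of another lay 48 of the 276 (17.4%), 27 within 10 kb and 16 within 1 kb. Of the 597 loci at 0 in roots, a list of larger number, 24.96% lay within 100 kb of another. Same-strand loci at most 1 kb apart were also joined into one, which counted as at 0 in shoots only where all its loci were. This left 168 loci at 0, the same number as had no same-strand locus within 1 kb, so none was a joined one. Of these 168, 9.52% lay within 100 kb of another. The 48 loci formed 16 pairs and 4 groups of at least 3, with successive loci at most 100 kb apart.

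The densest group lay inside a single locus. On the minus strand of chromosome 3, 4 loci of 123 to 165 bp lay between 46574663 and 46577358, within 2.70 kb. They had 8.18, 11.8, 26.8 and 10.4 FPKM in roots, in order of position. All 4 are enclosed in a locus of 6298 bp with 40.2 FPKM in roots against 1.20 FPKM in shoots, which is 4.23 as a log2 ratio. The group is therefore 1 neighbourhood and counts as 4 of the 24 loci with a root-biased enclosing locus.

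The largest group was on chromosome 6, with 5 loci between 156837942 and 156877591 and no other listed locus between them. The 4 plus-strand loci lay within the last 3 kb, with 1.03, 2.92, 10.2 and 1.48 FPKM in roots in order of position. The minus-strand locus, between 156837942 and 156838139, had 9.59 FPKM. Their surroundings were active in both organs. The plus-strand locus that follows 548 bp further on had 78.9 FPKM in roots against 40.3 FPKM in shoots, and the minus-strand one next to the group had 5.83 FPKM in roots against 5.52 FPKM in shoots. Neither of these 2 was at least 4-fold higher in roots.

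On chromosome 7, 4 loci of 870 to 1839 bp lay between 168791897 and 168905493. The plus-strand members had 7.83 and 3.65 FPKM in roots, and the minus-strand members had 7.22 and 16.2 FPKM. Each of the 3 other listed loci in this stretch was root-biased, with 41.8, 12.2 and 55.2 FPKM in roots and 0.147, 0.0452 and 0.164 FPKM in shoots. All 7 loci of the stretch, on both strands, were thus near or at 0 in shoots. These 4 loci were longer than most of the 276.

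The weakest group was on the minus strand of chromosome 3 between 43186045 and 43193930. Its 3 loci, of 203 to 455 bp, had 2.10, 1.13 and 2.05 FPKM in roots. The other listed locus in this stretch stood at 2.83 FPKM in roots against 0.519 FPKM in shoots. All 4 loci were thus low in roots as well.

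**Figure D5:**
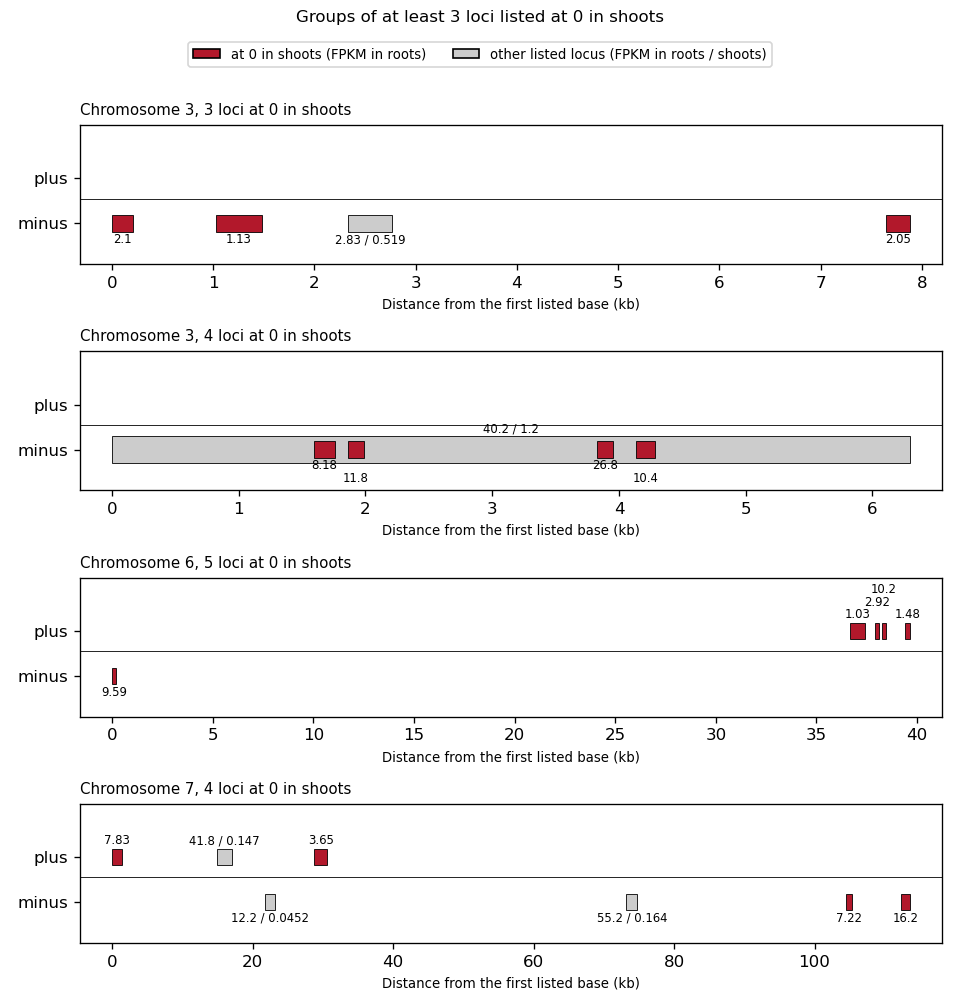
Maps of the 4 groups of at least 3 loci at 0 in shoots, with the distance in kb from the first listed base on the horizontal axis and the strands on the vertical axis. Red boxes are loci at 0 in shoots with their FPKM in roots, and grey boxes are the other listed loci with their FPKM in roots and in shoots. In the second map 4 red boxes lie inside 1 grey box at 40.2 and 1.20 FPKM, and in the last the grey boxes reach 55.2 FPKM in roots against 0.164 FPKM in shoots.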

How the data were processed

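Polyadenylated RNA of B73 roots and shoots was collected 14 days after germination and sequenced in strand-specific single-end libraries for 100 cycles, 1 per organ, per the labels' protocols. The authors deposited 1 table of FPKM values with the position of each locus on B73 RefGen_v2, per the file header. TopHat, Cufflinks and Cuffdiff appear in the submitters' processing notes, with versions and settings not given in the sources used here. Depth is unknown beyond the steps described for loci of 101 bp.

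Loci with a shoot level of 0 were selected. The nearest locus on each strand was found by the gap between edges, an overlap counting as 0. Ratios were log2 of roots over shoots with 1 FPKM added, and a call needed at least 4-fold and 1 FPKM. Loci at most 100 kb apart formed groups. With 1 library per organ no test was made. Named were the loci at 20 FPKM or more, those in groups of at least 3, the longest, the shortest, the weakest and the 5 just outside the rule, with identifiers for 2. Other loci given by position were chosen after their values were seen. The loci, lists and rules were chosen with earlier results of these data known. Neighbour and group searches were tested on simulated data. Alternatives covered the rule, pseudocount, scaling, filters, distances, joined loci and short spans. Python 3.11.15, pandas 2.3.3, NumPy 2.4.6, SciPy 1.17.1 and matplotlib 3.10.9 were used.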

Additional observations from a re-analysis of the deposited data

How the results depend on the processing

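Counts were compared within 1.5 times. Percentages and medians were compared with a 95% interval that treats loci as independent, which they are not: 13.4% to 22.3% for the share within 100 kb, 63.1% to 74.0% for the share spanning at most 500 bp, 0.62 to 1.05 for the same-strand median and 0.02 to 0.25 for the opposite-strand median. Of 34 alternative values, 20 stayed within these limits and 14 did not, and no median changed sign. A limit of 0.1 FPKM in shoots gave 489 loci. Joining same-strand loci within 1 kb left only the 168 with no same-strand locus that close, of which 9.52% lay within 100 kb of another. A root filter of 2 FPKM gave 158 loci and one of 10 FPKM gave 48, against 90 at 5 FPKM. The same-strand median of 0.85 became 0.42 with a pseudocount of 5 FPKM, 0.49 with neighbours at 5 FPKM or more in a library, 1.23 with neighbours within 10 kb and 0.42 with the nearest neighbour over 1 kb away. With loci at most at 0.1 FPKM in shoots, an alternative added after seeing the data, it was 0.58. The opposite-strand median was 0.25 with neighbours within 10 kb. The share spanning at most 500 bp was 55.4% over the 168 loci left by joining and 58.9% without spans under 200 bp. It was 44.0% with loci at most at 0.1 FPKM in shoots. All of these shares were added after seeing the data. Fewer loci, other thresholds or a stronger shrinkage enter these values by construction. No paired analysis was possible because each organ has 1 library, and no library could be left out.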

Other observations

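Of the 16 pairs of loci at 0 in shoots, 11 had both loci on 1 strand and 5 had them on opposite strands. The root levels within a pair differed by a median of 1.69-fold. They were close on the plus strand of chromosome 3, where the loci between 196363209 and 196363910 and between 196441003 and 196441263 had 8.84 and 9.64 FPKM in roots. They were farthest apart, by 38.0-fold, on the minus strand of chromosome 2, where the locus between 18614715 and 18615121 had 1.11 FPKM and the enclosed locus between 18623912 and 18624016 had 42.3 FPKM. In another pair, on the minus strand of chromosome 4 between 156639415 and 156647200, the loci had 16.4 and 14.0 FPKM in roots. Between them lay 6 other listed loci of that strand. With 1 FPKM added, 3 of these 6 were at least 4-fold higher in roots. The rest missed that call, with log2 ratios of 1.996, 1.866 and 1.322, and also leaned to the root. Their root levels were 5.82, 4.36 and 1.85 FPKM, while the shoot library gave them 0.709, 0.471 and 0.141 FPKM. These 3 pairs were chosen after their values were seen. Of the 276, 5 (1.81%) had a locus at 0 in roots within 10 kb and 16 (5.80%) within 100 kb, against 1.64% and 6.09% of all listed loci above 0 in roots.

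The identifiers carry a number series for each strand that runs up to 29435 (plus) and 29413 (minus), so numbers are missing between listed loci. The adjacent numbers were listed in 76.7% of cases for the plus-strand loci at 0 in shoots and in 72.9% for all listed plus-strand loci. On the minus strand the shares were 72.0% and 72.1%.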
